A study of Arabidopsis thaliana with 12 samples.

Results

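Transcript levels in seedlings of nia1nia2, an Arabidopsis mutant in the genes of both nitrate reductases, were compared with those of the wild-type accession Col-0. Of the 12 Affymetrix ATH1 arrays of the series, the 6 arrays of these genotypes were taken by their titles, the 3 of nia1nia2 being numbered replicate 2 to 4 and the 3 of Col-0 replicate 1 to 3. Both genotypes were grown as whole seedlings on MS medium with 1% sucrose under long days (light for 16 h, dark for 8 h), and were harvested 5 h after dawn at an age of 15 days, which the labels place after the transition to flowering. No treatment was applied, and nothing in the sources used here says how many seedlings entered an RNA sample. The other 6 arrays were of noa1-2, a mutant in NITRIC OXIDE ASSOCIATED1, and of nia1nia2noa1-2, which combines the mutations. Of 13355 genes that could be named, the 6888 whose mean log2 intensity reached 6 in nia1nia2 or in Col-0 were tested, 6 being the level at which the study's methods place the change between noise and signal.

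Nitrate reductase converts nitrate taken up by the root to nitrite, the first step of nitrate assimilation, and it can also reduce nitrite to nitric oxide (NO), a signalling gas. A plant without it therefore has both a block in the use of nitrate and a low NO level. In Arabidopsis the enzyme is encoded by NIA1 and NIA2, and the question set by the design was which transcripts differ in seedlings that lack this source of NO. NIA1 and NIA2 have no probe set listed for them alone in the annotation used here, so the mutated genes could not check the labels.

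The labelled tissue was checked against marker genes. PYK10, a beta-glucosidase of the root, read 12.55, 13.04 and 13.0 (log2 intensity) on the nia1nia2 arrays and 12.65, 12.70 and 12.65 on the Col-0 arrays. The summed intensity of the 4 root markers named, most of it from PYK10, ran from 6665 to 9288 in nia1nia2 and from 7108 to 7307 in Col-0. The summed intensity of 10 nuclear photosynthesis genes, the leaf markers, ran from 58890 to 78846 in nia1nia2 and from 94596 to 99950 in Col-0. Root and leaf transcripts were thus present on every array, and the leaf sum did not overlap between the genotypes. None of the 12 floral markers is named in the table. With whole seedlings, fewer cells of a type and less RNA per cell cannot be told apart.

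The nia1nia2 arrays differed more among themselves than the others did. Over the genes tested, the SD between replicates had a median of 0.26 (log2) in nia1nia2 and 0.12 in Col-0, and 81.8% of the 6888 genes had the larger SD in nia1nia2. An SD of at least 1 was reached by 50 genes in nia1nia2 and by 2 in Col-0. For this reason the level on each array is given below in the order of the replicate numbers, 2 to 4 for nia1nia2 and 1 to 3 for Col-0.

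At an adjusted p under 0.05 (limma, Benjamini-Hochberg adjustment over all genes tested), 782 genes were raised in nia1nia2 (11.4% of those tested) and 1227 were lowered (17.8%). A change of at least 2-fold was reached by 326 of the raised genes (4.73%) and 321 of the lowered genes (4.66%). All 3 nia1nia2 arrays lay above all 3 Col-0 arrays for 1253 genes (18.2%) and below them for 2017 (29.3%). The median log2 fold change of all genes was -0.10. After median centring of the arrays, which set that median to 0, 1013 genes were raised and 899 lowered, so the share of raised genes among those called moved to 53.0%, against 38.9% as deposited. The largest rise was 5.40 and the largest fall -3.71 on the log2 scale.

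**Figure D1:**
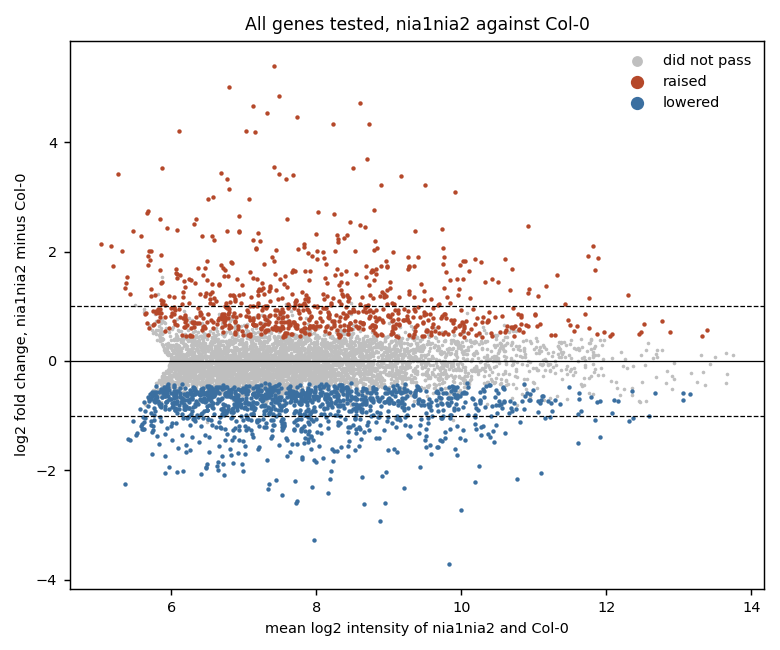
Log2 fold change of nia1nia2 against Col-0 (vertical axis) over the mean log2 intensity of both genotypes (horizontal axis) for the 6888 genes tested. Red points are the 782 raised genes, blue points the 1227 lowered genes and grey points genes that did not pass, and dashed lines mark a 2-fold change. The rises reach 5.40, farther from 0 than the falls, which reach -3.71.

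The strongest rises were of genes that were at or near background in Col-0. AT1G10585, which encodes a basic helix-loop-helix (bHLH) DNA-binding protein, had log2 intensities of 10.22, 8.94 and 11.19 in nia1nia2, against 5.16, 4.68 and 4.31 in Col-0. The groups were far apart, and the log2 fold change of 5.40 (standard error, SE, 0.48, limma adjusted p = 0.00028) corresponds to 42.2-fold. UGT76E12, a UDP-glucosyltransferase gene, read 9.50, 8.45 and 9.95 in nia1nia2 and 4.50, 4.18 and 4.21 in Col-0, 32.1-fold higher (SE 0.33 in log2, limma adjusted p = 8e-05). AT3G25790, which encodes a myb-like transcription factor, read 10.10, 9.26 and 10.38 in nia1nia2 and 4.88, 5.23 and 5.10 in Col-0, 28.7-fold higher (limma adjusted p = 4.8e-05). On all 3 genes replicate 4 was the highest nia1nia2 array and replicate 3 the lowest. The Col-0 means lay under 6, where signal and noise are not separated, so the folds of these genes are not exact.

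AT5G01740, a gene of the nuclear transport factor 2 family, is the largest rise with a Col-0 mean above 6. It read 10.83, 10.34 and 11.70 in nia1nia2 and 6.53, 5.72 and 6.47 in Col-0, 26.3-fold higher (log2 fold change 4.72, SE 0.34, limma adjusted p = 0.00013). AT3G04000, which encodes a Rossmann-fold oxidoreductase, read 10.95, 10.57 and 11.18 in nia1nia2 and 7.12, 6.38 and 6.19 in Col-0, 20.2-fold higher. AT1G73120, whose product has no known function, read 10.07, 9.90 and 11.23 in nia1nia2 and 6.47, 5.99 and 5.74 in Col-0, also 20.2-fold higher. Among the other genes of the 12 largest rises were AT2G18480, a sugar transporter of the major facilitator family (log2 fold change 4.65), AT1G43910, a nucleoside triphosphate hydrolase (4.46), the peroxidase gene AT5G39580 (4.20) and AT2G04050, a MATE-family efflux transporter (4.20). AT3G16330 and AT1G21520, both of unknown function, completed the 12 with 4.53 and 4.18. Replicate 4 was the highest nia1nia2 array for each of the 12.

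The falls were smaller and less even. AT1G66100 had log2 intensities of 7.56, 9.72 and 6.64 in nia1nia2, against 12.13, 11.40 and 11.51 in Col-0. It was 13.1-fold lower (log2 fold change -3.71, SE 0.64, limma adjusted p = 0.0041), and the nia1nia2 arrays themselves spanned more than the gap between replicate 3 and Col-0. AT5G18600, on the list of CC-type glutaredoxins, read 5.52, 7.42 and 6.05 in nia1nia2 and 9.88, 9.40 and 9.55 in Col-0, 9.71-fold lower. EXPA8, which encodes an alpha-expansin that loosens cell walls, read 7.18, 9.11 and 5.95 in nia1nia2 and 10.65, 10.24 and 10.14 in Col-0, 7.62-fold lower (SE 0.64 in log2, limma adjusted p = 0.01). In each of these genes nia1nia2 replicate 3 was the array nearest to Col-0.

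MSRB6, a gene for a methionine sulfoxide reductase, read 7.07, 8.43 and 6.58 in nia1nia2 and 10.55, 9.80 and 9.56 in Col-0, 6.11-fold lower (limma adjusted p = 0.0036). AT1G67865 was the fall with the most even arrays, at 7.48, 8.05 and 7.40 in nia1nia2 against 10.52, 10.13 and 10.10 in Col-0, 6.09-fold lower (SE 0.21 in log2, limma adjusted p = 0.00015). Fes1B was 6.02-fold lower, with 6.12, 7.28 and 5.86 in nia1nia2 and 9.06, 9.05 and 8.92 in Col-0. The other genes among the 12 largest falls, given here by locus only, were AT3G15450, AT5G62360, AT3G15630, AT3G23080, AT5G45650 and AT1G75460, with log2 fold changes from -2.73 for AT3G15450 to -2.32 for AT1G75460. Replicate 3 was the highest nia1nia2 array for each of the 12.

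**Figure D2:**
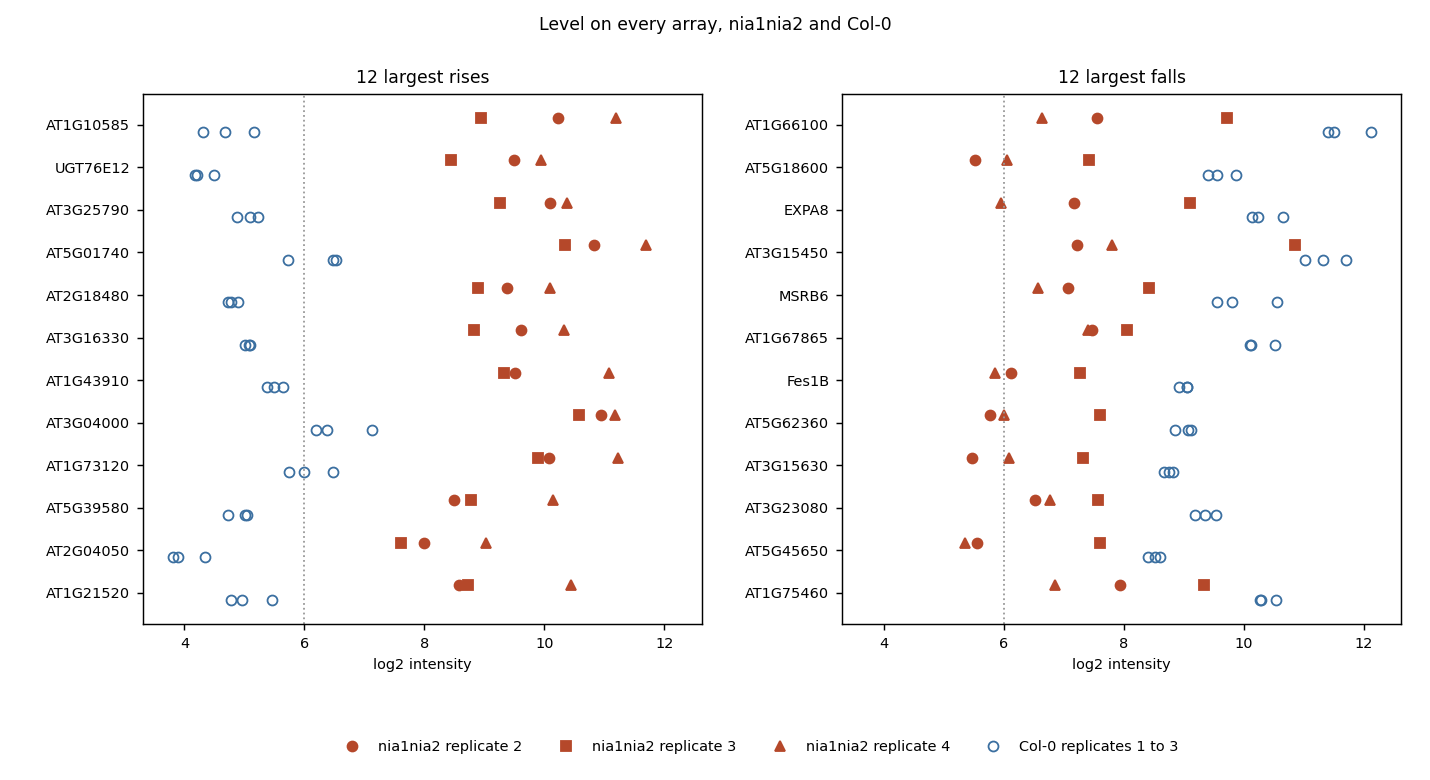
Log2 intensity on each array (horizontal axis) of the genes with the 12 largest rises (left) and the 12 largest falls (right) among called genes whose nia1nia2 and Col-0 arrays did not overlap. Filled red symbols are the nia1nia2 arrays (circle, replicate 2, square, replicate 3, triangle, replicate 4), open blue circles the Col-0 arrays, and the dotted line marks a log2 intensity of 6. Replicate 4 is the rightmost red symbol for each rise and replicate 3 the rightmost for each fall.

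Replicate 3 lay nearest to Col-0 across the changed genes, too. Over the 326 genes raised at least 2-fold, the median difference from the Col-0 mean was 1.55 on replicate 2, 1.25 on replicate 3 and 1.83 on replicate 4 (log2), and replicate 3 was the nearest array to the Col-0 mean for 226 of them (69.3%). Over the 321 genes lowered at least 2-fold, the medians were -1.42, -0.98 and -1.53, and replicate 3 was the nearest array for 260 (81.0%). These genes were called with the same arrays, so the values describe how the 3 arrays share the change. Without replicate 3 the fit called 885 genes raised and 1393 lowered, without replicate 4 it called 903 and 1628, and without replicate 2 it called 661 and 858. Fewer genes passed without 1 of the Col-0 arrays, at 446 raised and 580 lowered without replicate 1, 434 and 595 without replicate 2 and 441 and 552 without replicate 3.

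**Figure D3:**
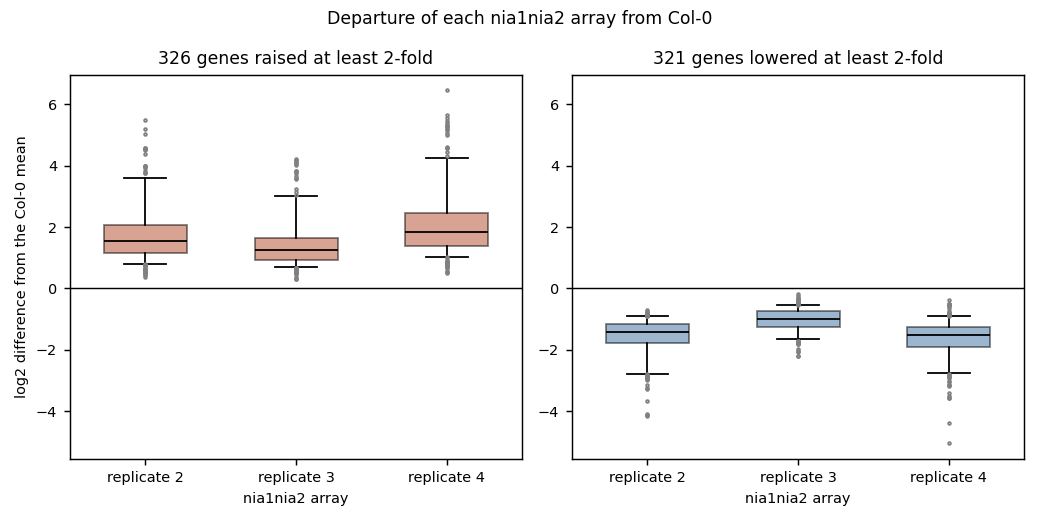
Log2 difference from the Col-0 mean (vertical axis) on each nia1nia2 array (horizontal axis) for the 326 genes raised (left) and the 321 genes lowered (right) at least 2-fold. Boxes show the quartiles with the median as a line, whiskers reach the 5th and 95th percentiles and dots are the genes beyond them. The median of replicate 3 is nearest to 0 in both panels, at 1.25 and -0.98.

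Some genes set 1 nia1nia2 array apart from the other 2. With the other 2 within 0.5 of each other, replicate 4 lay at least 1 (log2) above them for 102 genes and below them for 57, while the counts were 11 and 14 for replicate 2 and 26 and 11 for replicate 3. HRGP1, a hydroxyproline-rich glycoprotein gene of the cell wall, read 8.35, 8.42 and 5.71 in nia1nia2 and 7.95, 8.02 and 7.77 in Col-0. Its fold change of -0.42 (SE 0.61, limma adjusted p = 0.64) rested on replicate 4, and without that array it was 0.47 (limma adjusted p = 0.025). AT5G52760 read 6.24, 6.04 and 8.63 in nia1nia2 and 3.41, 3.64 and 3.61 in Col-0, so that it was raised on each array and most on replicate 4. Of the 102 genes above on replicate 4, 50 had the other 2 nia1nia2 arrays within 0.5 of the Col-0 mean. Of the 102, 37 were called, beside 2009 of all 6888 genes.

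Replicate 2 stood highest in other genes. AT3G17520, annotated as a gene of a late embryogenesis abundant (LEA) protein, a kind that protects cells during drying, read 8.81, 6.21 and 6.04 in nia1nia2 and 4.29, 4.16 and 4.48 in Col-0, and it was raised 6.54-fold (SE 0.62 in log2, limma adjusted p = 0.012). AT3G02480, chosen after its values were seen, read 11.85, 10.07 and 9.58 in nia1nia2 and 7.15, 7.0 and 7.71 in Col-0. Replicate 3 stood apart in other genes of large spread. AT3G15450 read 7.22, 10.85 and 7.80 in nia1nia2 and 11.71, 11.33 and 11.03 in Col-0, and AT2G20670 read 4.83, 8.29 and 5.58 in nia1nia2 and 8.53, 8.21 and 8.69 in Col-0. On replicate 3 both were thus close to the wild type or within its range, and neither call held in every refit without 1 array (limma adjusted p up to 0.1 and 0.15). AT1G13650 read 5.25, 7.58 and 4.98 in nia1nia2 and 7.27, 6.86 and 7.03 in Col-0, and it did not pass (limma adjusted p = 0.17) except without replicate 3 (limma adjusted p = 0.00038) or with array weights (limma adjusted p = 0.043).

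Genes of anthocyanin synthesis were raised together. Of 38 genes on the list of flavonoid and anthocyanin synthesis, 7 are named in the table and 6 were tested, of which 5 were raised (83.3%, beside 11.4% of all genes) and 0 lowered, with a median log2 fold change of 1.51 beside -0.10 over all genes. DFR, the dihydroflavonol 4-reductase that commits flavonoids to anthocyanin, had log2 intensities of 11.49, 11.03 and 10.82 in nia1nia2, against 6.86, 8.45 and 8.39 in Col-0. It was 9.27-fold higher (SE 0.39 in log2, limma adjusted p = 0.001), although Col-0 replicate 1 was well below the other Col-0 arrays. UF3GT, a glycosyltransferase of anthocyanins, read 9.79, 9.13 and 9.70 in nia1nia2 and 6.66, 7.99 and 7.93 in Col-0, 4.04-fold higher (limma adjusted p = 0.004). AT4G14090, annotated as a UDP-glycosyltransferase, was 3.79-fold higher, AT5MAT, whose product adds malonate to anthocyanins, 2.14-fold, and UGT78D2, which glucosylates flavonoids, 2.00-fold. Col-0 replicate 1 was the lowest array of each of these 5 genes, and AT5MAT no longer passed without it (limma adjusted p = 0.054) or without nia1nia2 replicate 2 (limma adjusted p = 0.053). UGT78D1, which attaches rhamnose to flavonols, was at 8.41, 8.26 and 8.31 in nia1nia2 and 8.50, 8.90 and 8.88 in Col-0 and did not pass (limma adjusted p = 0.068).

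All tested genes of the mitochondrial stress list, which respond in Arabidopsis when respiration is disturbed, were raised. The list has 24 members, of which 9 are named and 7 were tested (100% raised, beside 11.4% of all genes), and their median log2 fold change was 2.37 with values from 0.66 to 4.20. AT2G04050, the MATE transporter above, read 8.00, 7.61 and 9.02 in nia1nia2 and 4.34, 3.81 and 3.89 in Col-0, 18.3-fold higher (limma adjusted p = 0.00014). AT5G51440, a gene for a small heat shock protein of the HSP20 type, read 6.92, 7.51 and 8.27 in nia1nia2 and 5.07, 5.13 and 4.98 in Col-0, 5.68-fold higher. AT2G21640, of unknown function, read 7.81, 8.23 and 8.31 in nia1nia2 and 5.79, 5.56 and 5.90 in Col-0, 5.16-fold higher (SE 0.18 in log2, limma adjusted p = 0.00013). NDB2, an NAD(P)H dehydrogenase on the outer face of the inner mitochondrial membrane, was 2.67-fold higher, at 9.28, 8.64 and 9.50 in nia1nia2 against 7.48, 7.75 and 7.94 in Col-0. GSTU25, a glutathione transferase gene, rose 3.19-fold, AT2G41730, of unknown function, 6.41-fold and AT5G09570 1.58-fold. The nia1nia2 arrays lay above the Col-0 arrays for all 7 genes, as they did for 18.2% of all genes. Of the 2009 called genes, 2000 had arrays that did not overlap, so this adds nothing to the calls.

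UDP-glucosyltransferases, which attach sugars to small molecules such as hormones, flavonoids and foreign compounds, were raised in part. Of the 47 named family members 28 were tested, 12 were raised and 3 lowered (42.9% and 10.7%, beside 11.4% and 17.8% of all genes), and the median log2 fold change was 0.25. After UGT76E12, the largest rises were of UGT73C1, UGT73B4, UGT76B1 and UGT87A2. UGT73C1 read 9.41, 8.15 and 10.19 in nia1nia2 and 6.96, 5.83 and 5.00 in Col-0, 9.99-fold higher with a wide spread in both genotypes (SE 0.57 in log2, limma adjusted p = 0.0038). UGT73B4 read 7.91, 7.73 and 9.15 in nia1nia2 and 5.75, 5.54 and 5.55 in Col-0, 6.28-fold higher, and UGT76B1, whose product glucosylates isoleucic acid, was 4.98-fold higher. The 3 lowered members, UGT76C2, UGT85A5 and UGT80B1, changed less (log2 fold changes of -0.59, -0.53 and -0.49), and only 1 member was called lowered when arrays were centred on their medians or quantile normalized again.

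Other enzymes of detoxification and redox balance were tested in small numbers. GR1, which encodes glutathione reductase of the cytosol, read 11.12, 10.67 and 11.34 in nia1nia2 and 9.69, 9.42 and 9.70 in Col-0, 2.71-fold higher (limma adjusted p = 0.0014). ATMDAR2, a monodehydroascorbate reductase gene, was 1.62-fold higher, at 10.06, 10.14 and 10.49 in nia1nia2 against 9.43, 9.73 and 9.45 in Col-0. These were the 2 raised genes among the 4 tested of 19 antioxidant genes (50.0%, beside 11.4% of all genes). GR, the glutathione reductase of organelles, read 10.76, 10.67 and 10.16 in nia1nia2 and 10.92, 10.73 and 10.68 in Col-0 and did not pass (limma adjusted p = 0.35). Of 8 glutathione transferase genes tested, GSTU25 and GSTU16 were raised and GSTU18 lowered (25.0% and 12.5%, beside 11.4% and 17.8% of all genes). GSTU18 fell to 7.91, 8.80 and 8.08 in nia1nia2, against 9.46, 9.21 and 9.49 in Col-0. Of 10 tested P450 genes 3 were raised (30.0%, beside 11.4% of all genes), the most CYP71B23 (2.63-fold). The 2 lowered were CYP71B24 (2.26-fold) and CYP71B29 (1.70-fold), and the share lowered, 20%, was close to the 17.8% of all genes.

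**Figure D4:**
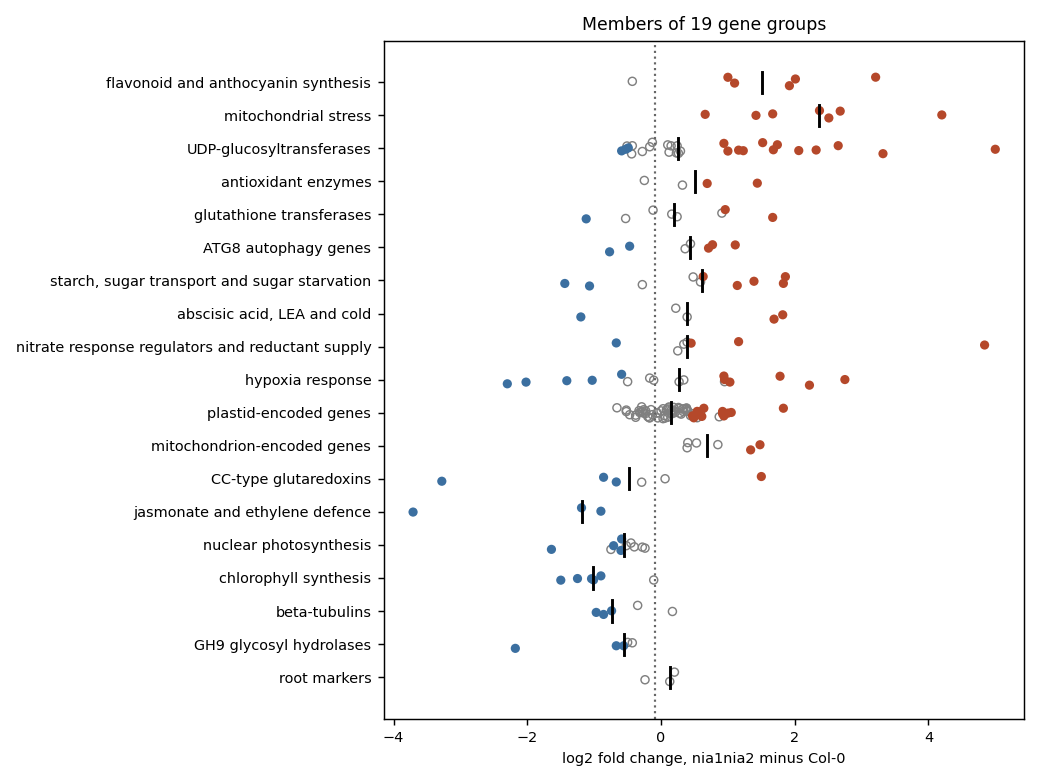
Log2 fold change of nia1nia2 against Col-0 (horizontal axis) for the tested members of 19 gene groups. Filled red and blue points are members raised and lowered at an adjusted p under 0.05, open points did not pass, black bars are group medians, and the dotted line is the median of all genes, -0.10. The mitochondrial stress group has the highest median, 2.37, and the chlorophyll synthesis group (-1.02) has no raised member.

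Chlorophyll synthesis genes moved the other way. Of 18 list members 6 are named and tested, and 5 were lowered (83.3%, beside 17.8% of all genes), with a median log2 fold change of -1.02. PORB, the light-dependent protochlorophyllide oxidoreductase, read 10.88, 11.53 and 10.17 in nia1nia2 and 12.16, 12.52 and 12.41 in Col-0, 2.83-fold lower (SE 0.30 in log2, limma adjusted p = 0.0075). HEME2, a uroporphyrinogen decarboxylase gene, read 8.89, 9.16 and 8.62 in nia1nia2 and 10.20, 10.11 and 10.12 in Col-0, 2.38-fold lower. CHLM, which encodes the magnesium protoporphyrin methyltransferase, was the most even, at 10.63, 10.70 and 10.55 in nia1nia2 against 11.77, 11.57 and 11.66 in Col-0, 2.06-fold lower (limma adjusted p = 0.0013). CHLI2, a subunit of magnesium chelatase, and GSA1, a glutamate-1-semialdehyde aminomutase, were 2.01-fold and 1.87-fold lower, and the call of GSA1 was lost without any 1 of the Col-0 arrays or without nia1nia2 replicate 2 (limma adjusted p of 0.055 to 0.077). HEMA2, a glutamyl-tRNA reductase gene, read 6.59, 6.63 and 6.87 in nia1nia2 and 6.70, 6.76 and 6.96 in Col-0 and did not pass. The summed intensity of the leaf markers moved in the same direction as these genes, and its part in the result was not tested.

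The nuclear photosynthesis genes were lower in smaller measure. Of 63 list members 10 are named, all were tested, 4 were lowered (40.0%, beside 17.8% of all genes, and 3 after median centring) and 0 raised, and for all 10 the nia1nia2 arrays lay below the Col-0 arrays (29.3% of all genes did). LHCB4.3, an isoform of the antenna protein CP29 of photosystem II, read 7.32, 7.53 and 7.54 in nia1nia2 and 8.85, 9.22 and 9.25 in Col-0, 3.12-fold lower (SE 0.16 in log2, limma adjusted p = 0.00043). The brighter isoform LHCB4.2 read 12.79, 12.80 and 12.51 in nia1nia2 and 13.42, 13.37 and 13.44 in Col-0, 1.64-fold lower, and LHCB4.1 read 13.09, 13.44 and 12.89 in nia1nia2 and 13.57, 13.57 and 13.62 in Col-0, which did not pass (limma adjusted p = 0.075). PSAN of photosystem I and ATPC1 of the chloroplast ATP synthase were 1.52-fold and 1.51-fold lower, and both calls were lost without any 1 of the Col-0 arrays (limma adjusted p of 0.053 to 0.13). PRK, the phosphoribulokinase of the Calvin cycle, read 12.42, 12.55 and 11.28 in nia1nia2 and 13.03, 12.75 and 12.73 in Col-0, so that replicate 4 was the lowest by far, and it did not pass (limma adjusted p = 0.095).

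None of the genes encoded in the plastid itself passed as lowered. All 69 named plastid genes were tested, and 11 were raised and 0 lowered (15.9% and 0%, beside 11.4% and 17.8% of all genes). Their median log2 fold change was 0.15. At an unadjusted p under 0.05, 13 of them were higher and 3 lower. The largest rise was of rbcL, the plastid gene for Rubisco's large subunit, at 9.75, 10.08 and 9.82 in nia1nia2 and 8.12, 7.92 and 8.12 in Col-0, 3.56-fold higher (SE 0.15 in log2, limma adjusted p = 0.00019). Next were psbN, a small gene of photosystem II assembly, atpI, which encodes a subunit of the ATP synthase, rps16, of the small ribosomal subunit, and atpH, also of the ATP synthase, at 2.07-fold, 2.00-fold, 1.92-fold and 1.89-fold higher. For psbN, atpI, rps16 and atpH replicate 4 was the highest nia1nia2 array. Among the genes that did not pass, log2 fold changes ran down to -0.66 for psbE (limma adjusted p = 0.11). Of 6 tested mitochondrion-encoded genes, ccb382 and nad2 were raised (33.3%, beside 11.4% of all genes), with log2 fold changes of 1.48 and 1.34. The level of ccb382 was highest on replicate 4 (6.64, 6.67 and 8.38 in nia1nia2 and 5.57, 5.79 and 5.89 in Col-0).

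Few genes of nitrate use could be tested. AT3G25790, the myb-like factor with the third largest rise, is on the list of 30 nitrate response regulators and reductant suppliers. Of that list 7 were tested, 3 raised and 1 lowered (42.9% and 14.3%, beside 11.4% and 17.8% of all genes). Myb-like factors of this group are known as nitrate-inducible repressors. A second myb-like gene of the list, AT1G25550, read 9.02, 9.53 and 8.89 in nia1nia2 and 8.73, 8.77 and 8.76 in Col-0 and did not pass (limma adjusted p = 0.14). AT5G41670, a 6-phosphogluconate dehydrogenase gene of the oxidative pentose phosphate pathway, was 2.23-fold higher, at 10.88, 10.52 and 10.70 in nia1nia2 against 9.08, 9.78 and 9.77 in Col-0 (limma adjusted p = 0.0053). Also from this list, AT3G02360 was 1.36-fold higher and AT3G60320 1.59-fold lower. AT3G02360 lost its call without replicate 2 of nia1nia2 or any 1 of the Col-0 arrays (limma adjusted p of 0.081 to 0.16). AT2G26690, the only tested gene of 24 on the transporter list, read 10.16, 10.14 and 9.55 in nia1nia2 and 9.71, 9.59 and 9.46 in Col-0 (limma adjusted p = 0.18), and none of the 25 nitrogen assimilation genes is named in the table.

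Genes of sugar transport and storage changed in both directions. Of 34 list members 14 are named and 10 were tested, with 5 raised and 2 lowered (50.0% and 20%, beside 11.4% and 17.8% of all genes) and a median log2 fold change of 0.61. SWEET4, which encodes a sugar exporter, read 9.77, 8.30 and 8.75 in nia1nia2 and 7.10, 7.10 and 7.04 in Col-0, 3.63-fold higher (limma adjusted p = 0.0039). APL3, the large subunit of ADP-glucose pyrophosphorylase in starch synthesis, read 9.07, 7.83 and 8.09 in nia1nia2 and 5.89, 6.74 and 6.87 in Col-0, 3.56-fold higher. SAG29, another SWEET exporter, read 10.48, 9.25 and 8.55 in nia1nia2 and 8.01, 7.90 and 8.21 in Col-0, 2.61-fold higher, but its call was lost without any 1 of the Col-0 arrays (limma adjusted p of 0.081 to 0.096). For SWEET4, APL3 and SAG29 replicate 2 was the highest array. SWEET13 and SWEET11, which export sucrose for phloem loading, rose 2.20-fold and 1.55-fold. SWEET16, a sugar carrier of the vacuole, was 2.09-fold lower, and QQS, an orphan gene tied to starch content, fell to 4.30, 5.45 and 4.41 in nia1nia2, against 6.34, 6.09 and 6.04 in Col-0.

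Among genes of abscisic acid, LEA and cold responses, 5 of 43 are named and were tested, 2 of them raised and 1 lowered. The shares were 40.0% and 20%, beside 11.4% and 17.8% of all genes, so the share lowered was close to that of all genes. LEA4-5 read 8.23, 7.07 and 6.93 in nia1nia2 and 5.59, 5.57 and 5.61 in Col-0, 3.53-fold higher (limma adjusted p = 0.0035). LTI30, a dehydrin gene, read 12.11, 10.79 and 11.72 in nia1nia2 and 9.55, 9.98 and 10.03 in Col-0, 3.22-fold higher. COR15B, a cold-induced protein of the chloroplast stroma, went the other way with 9.73, 9.89 and 9.37 in nia1nia2 and 10.31, 11.06 and 11.23 in Col-0, 2.30-fold lower (limma adjusted p = 0.0086). Its neighbour in function, COR15A, did not pass (log2 fold change 0.39, limma adjusted p = 0.25).

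The hypoxia response list was split. Of 52 members 26 are named and 17 were tested, 6 raised and 5 lowered (35.3% and 29.4%, beside 11.4% and 17.8% of all genes), with a median log2 fold change of 0.27. AT1G65500, of unknown function, read 9.62, 10.08 and 10.84 in nia1nia2 and 7.49, 6.96 and 7.83 in Col-0, 6.74-fold higher (limma adjusted p = 0.00082). AT4G39675 read 9.55, 8.96 and 9.73 in nia1nia2 and 7.29, 7.15 and 7.13 in Col-0, 4.67-fold higher. AT5G26200, a mitochondrial substrate carrier, was 3.43-fold higher. Against these, AT4G27450 read 6.27, 7.75 and 6.36 in nia1nia2 and 9.88, 8.72 and 8.69 in Col-0, 4.94-fold lower (limma adjusted p = 0.0058), and AT1G19530 was 4.07-fold lower. PDC2, a pyruvate decarboxylase gene of fermentation, was at 9.83, 10.01 and 9.85 in nia1nia2 and 9.93, 10.07 and 10.01 in Col-0 and did not pass (limma adjusted p = 0.59). ADH1, the alcohol dehydrogenase gene of the hypoxia response, and the group VII ERF factors are not named in the table. MAP1A, a methionine aminopeptidase that exposes the N terminus of N-end rule substrates, read 8.69, 8.56 and 9.12 in nia1nia2 and 8.39, 8.50 and 8.49 in Col-0 (limma adjusted p = 0.18).

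Lowered genes were also found on the lists of jasmonate and ethylene defence and of glutaredoxins. All 3 tested genes of 25 on the jasmonate and ethylene list were lowered (100%, beside 17.8% of all genes), and 2 after median centring. They were AT1G66100, the defensin gene PDF1.2b and the thionin gene THI2.2. PDF1.2b read 5.39, 6.67 and 5.40 in nia1nia2 and 6.89, 6.99 and 7.16 in Col-0, 2.29-fold lower (limma adjusted p = 0.022), and THI2.2 read 9.34, 9.26 and 8.81 in nia1nia2 and 10.74, 9.61 and 9.75 in Col-0, 1.86-fold lower (limma adjusted p = 0.047). THI2.2 lost its call with array weights (limma adjusted p = 0.13), after median centring (limma adjusted p = 0.081) and without any 1 array other than Col-0 replicate 2 (limma adjusted p of 0.066 to 0.12). Of 6 tested CC-type glutaredoxins, which act in redox control and nitrogen signalling, AT5G18600, AT2G47880 and AT4G15680 were lowered and AT4G33040 was raised (50.0% and 16.7%, beside 17.8% and 11.4% of all genes). AT4G33040 read 8.31, 7.42 and 8.07 in nia1nia2 and 6.26, 6.49 and 6.54 in Col-0, 2.83-fold higher, while AT2G47880 was 1.81-fold and AT4G15680 1.59-fold lower. The call of AT4G15680, whose nia1nia2 mean lay under 6, was lost when arrays were centred on their medians or quantile normalized again (limma adjusted p of 0.066 and 0.06).

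BHLH101, a bHLH factor that acts in the response to iron deficiency, read 4.59, 5.96 and 4.13 in nia1nia2 and 7.64, 6.62 and 6.58 in Col-0. It was 4.15-fold lower (SE 0.45 in log2, limma adjusted p = 0.011) and was below the level of 6 on all nia1nia2 arrays. AT3G13610, also known as F6'H1, a dioxygenase of coumarin synthesis that is induced by iron deficiency, was 2.32-fold higher, at 8.96, 8.77 and 9.38 in nia1nia2 against 7.29, 8.11 and 8.07 in Col-0. The other 3 tested genes of 29 on the iron list, PYE, ILR3 and AT1G47400, had log2 fold changes of -0.09, 0.13 and 0.31 and did not pass.

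Genes of the cell wall and cytoskeleton were changed in both directions. GH9B13, an endoglucanase gene, read 5.80, 6.88 and 6.38 in nia1nia2 and 8.24, 8.54 and 8.81 in Col-0, 4.52-fold lower (limma adjusted p = 0.001). Of 5 tested GH9 genes 3 were lowered (60.0%, beside 17.8% of all genes), and 2 after median centring. TBL37 and TBL38, of a family that acetylates wall polymers, were raised, TBL37 to 10.85, 10.48 and 11.25 in nia1nia2, against 7.69, 7.33 and 7.40 in Col-0, 10.5-fold higher (SE 0.21 in log2, limma adjusted p = 5.7e-05). Of 13 tested genes of that family 2 were raised and 4 lowered (15.4% and 30.8%, beside 11.4% and 17.8% of all genes), but under either of the other scalings 2 were lowered. Among the 5 beta-tubulin genes TUB1, TUB6 and TUB5 were lowered (60.0%, beside 17.8% of all genes), by 1.96-fold, 1.82-fold and 1.67-fold. TUB5 lost its call under both other scalings (limma adjusted p of 0.084 and 0.053). Of 6 tested alpha-expansins EXPA8 was lowered and EXPA20 raised (log2 fold change 0.59), 16.7% each, beside 17.8% and 11.4% of all genes. Of 4 tested xyloglucan endotransglucosylases, which remodel wall xyloglucan, XTH18 and XTH19 were raised (50.0%, beside 11.4% of all genes). Their log2 fold changes were 0.98 and 0.73, and none of the 4 was lowered, XTH16 having an unadjusted p under 0.05 at -0.95. Of 7 tested IQ-domain genes, whose products bind calmodulin, IQD28, IQD19 and IQD30 were lowered (42.9%, beside 17.8% of all genes). Their log2 fold changes were -0.81, -0.54 and -0.45, and 1 gene was called lowered under either of the other scalings (median centring and quantile normalization). AUR1, a kinase of mitosis, was 1.54-fold lower and the only called gene of 3 tested on the cell cycle list (33.3%, beside 17.8% of all genes).

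Genes of autophagy changed in both directions. Of the 7 ATG8 genes, whose products coat the autophagosome, ATG8B, ATG8G and ATG8H were raised and ATG8E and ATG8F lowered. The shares were 42.9% and 28.6%, beside 11.4% and 17.8% of all genes. ATG8B read 8.10, 8.38 and 8.35 in nia1nia2 and 7.31, 6.98 and 7.22 in Col-0, 2.15-fold higher, and ATG8E read 6.86, 7.31 and 7.41 in nia1nia2 and 8.38, 7.92 and 7.60 in Col-0, 1.71-fold lower. Both falls lost their calls when arrays were centred on their medians (limma adjusted p of 0.053 and 0.099). WRKY6, a transcription factor of senescence and phosphate supply, was 2.31-fold higher, at 7.86, 7.69 and 7.87 in nia1nia2 against 6.56, 6.74 and 6.50 in Col-0 (limma adjusted p = 0.00086).

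In the smallest groups, WRKY6 was the only called gene of 3 tested WRKY factors (33.3% raised, beside 11.4% of all genes). It was also the only tested gene of the senescence list. BGLU28, a beta-glucosidase gene of the sulfur limitation list, was raised 1.81-fold (limma adjusted p = 0.0027). AT1G04770, the other tested gene of that list, did not pass (50.0% raised, beside 11.4% of all genes). Several other groups showed no call. The 3 tested glucosinolate genes of 22, the 3 tested root markers of 21, the salicylic acid gene AT5G03350 and the clock gene GI did not pass, with log2 fold changes between -0.33 for GI and 0.33 for AT5G03350, and 0 of these 8 genes had an unadjusted p under 0.05. GI read 9.35, 9.02 and 8.87 in nia1nia2 and 9.21, 9.43 and 9.59 in Col-0, so that the arrays overlapped. No gene of the lists of phosphate starvation, iron storage, cytokinin response and flowering was tested.

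To see whether these changes set nia1nia2 apart from another mutant with reduced NO, it was compared with noa1-2 by the same test. Of the same 6888 genes, 884 were higher in nia1nia2 (12.8%) and 1214 lower (17.6%). The nia1nia2 arrays enter this comparison as well as that with Col-0. For AT1G10585 the level was 10.12 ± 1.13 in nia1nia2, against 4.51 ± 0.26 in noa1-2 (log2, SD, n = 3 each), a difference of 5.60 (limma adjusted p = 0.00019) whose size is not exact, since the noa1-2 mean lay under 6. DFR averaged 11.11 in nia1nia2 and 6.81 in noa1-2, a difference of 4.30 (SE 0.23, limma adjusted p = 4.9e-05), and SWEET13 8.41 in nia1nia2 and 5.49 in noa1-2, also under 6, a difference of 2.92 (limma adjusted p = 0.00013). These genes were thus higher in nia1nia2 than in noa1-2 as well as in Col-0. AT1G10585 and DFR were also high in nia1nia2noa1-2, with means of 9.22 and 10.3, a comparison that was not tested. DFR averaged 7.9 in Col-0, above its noa1-2 mean, and that difference was not tested either.

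For other genes the difference between nia1nia2 and noa1-2 did not pass the test. AT2G21640 averaged 8.12 in nia1nia2, 8.24 in nia1nia2noa1-2, 8.24 in noa1-2 and 5.75 in Col-0, and nia1nia2 and noa1-2 differed by -0.13 (SE 0.17, limma adjusted p = 0.61). For rbcL the means were 9.88, 9.93, 10.21 and 8.05 in the same order, with a difference of -0.33 between nia1nia2 and noa1-2 (SE 0.26, limma adjusted p = 0.37). BHLH101 averaged 4.89 in nia1nia2, 4.35 in nia1nia2noa1-2, 4.34 in noa1-2 and 6.95 in Col-0, and since the 3 mutant means all lay under 6, their order was not read. For AT1G66100 the means were 7.97 in nia1nia2, 7.64 in nia1nia2noa1-2, 9.04 in noa1-2 and 11.68 in Col-0, and nia1nia2 did not differ from noa1-2 beyond its spread (difference -1.07, SE 0.64, limma adjusted p = 0.24). A p above the threshold does not show that the levels are alike.

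QQS and AT4G15680 had their lowest mean in nia1nia2. QQS averaged 4.72 in nia1nia2, 8.27 in nia1nia2noa1-2, 6.16 in noa1-2 and 6.16 in Col-0, and nia1nia2 was lower than noa1-2 by 1.44 (log2 difference -1.44, limma adjusted p = 0.0066). AT4G15680 averaged 5.73 in nia1nia2, 6.44 in nia1nia2noa1-2, 8.11 in noa1-2 and 6.39 in Col-0, a difference of -2.38 between nia1nia2 and noa1-2 (limma adjusted p = 4.9e-05). The nia1nia2 means of both genes lay under 6, where signal and noise are not separated, so the size of these differences is not exact. Their Col-0 means, 6.16 and 6.39, were only just above 6. The differences from nia1nia2noa1-2 were not tested.

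**Figure D5:**
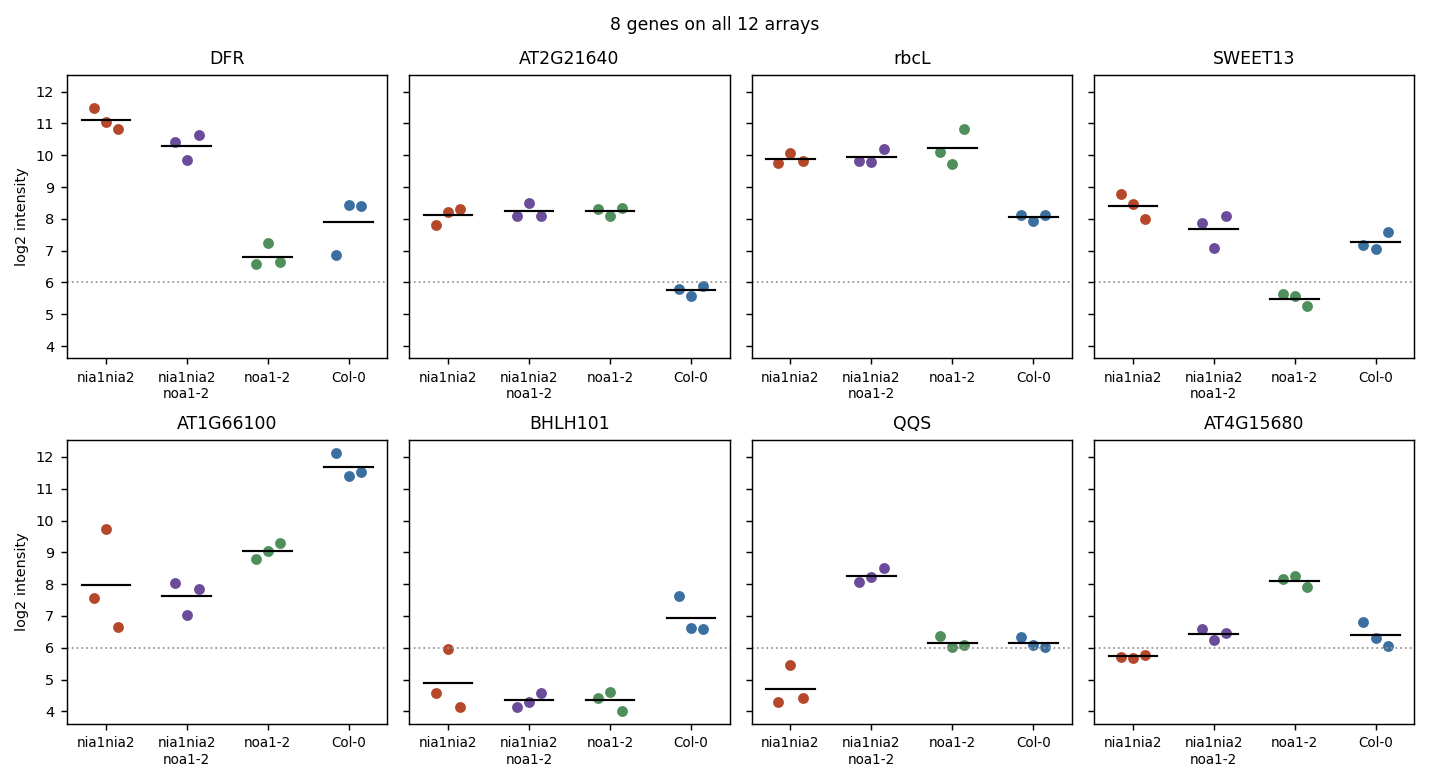
Log2 intensity (vertical axis) of 8 genes on the 3 arrays of each genotype (horizontal axis), with points for arrays, bars for means and a dotted line at 6. DFR and SWEET13 have their highest mean in nia1nia2, AT2G21640 and rbcL are above Col-0 in every mutant, AT1G66100 and BHLH101 are below Col-0 in every mutant, and QQS and AT4G15680 have their lowest mean in nia1nia2.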

How the data were processed

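Total RNA of 3 biological replicates per genotype was amplified, labelled with biotin and hybridized to ATH1 arrays, 1 array per replicate. Per the methods, the authors made the values by RMA (affy package, custom chip definition file), which includes background correction and normalization between arrays, and the labels also name limma. The authors deposited linear intensities whose log2 has 2 decimals. Their probe-set names are those of Affymetrix, and which definition file made them is not stated. Here log2 of each intensity was analysed. Array medians lay between 75.6 and 81.6 in nia1nia2 and between 83.3 and 86.2 in Col-0, and precision is limited by having 3 arrays per genotype.

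Of 22810 probe sets, 64 are controls, and the platform's annotation lists 13513 with 1 gene, 503 with several and 8730 with none. Only those with 1 gene were named, 13436 of them through the RefSeq gene table of TAIR10.1, and the brightest probe set stood for a gene. Functions of genes without a symbol were taken from the annotation that accompanies the study or left out. The groups were compared in limma 3.58.1 (R 4.3.3, lmFit and eBayes, 6 arrays, 4 residual degrees of freedom). The same fit was made for nia1nia2 against noa1-2. Fold changes are nia1nia2 minus the other genotype. Figures were drawn with Python 3.11.15 and matplotlib 3.10.9.

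The comparison, the 26 gene lists and the 13 families defined by symbol or genome were chosen with earlier results of these data known, and 5 of the families (TBL, ATG8, TUB, IQD and GH9) after the values of this comparison had been seen. A further family is not reported here. Named genes are the 12 largest rises and the 12 largest falls among called genes whose arrays did not overlap, up to 5 called members of each list, the 8 genes with the largest SD over the nia1nia2 arrays, and members of short lists that did not pass. Alternatives were no filter, other filters, the methods' t-test, all 12 arrays in 1 fit, array weights, eBayes with a trend, median centring, quantile normalization, a replicate block, other probe-set rules and each array left out in turn. Replicates of a genotype had equal values on 1.32% to 3.98% of probe sets, so no array was a copy. In data simulated from this comparison (6888 genes, 200 changed, 5 runs), 29.3% of 1.5-fold, 84.5% of 2-fold and 100% of 4-fold changes were found, and 3.92% of calls were false. The simulation drew the noise of each gene on its own and changed fewer genes than were called here, so these shares may not hold for the data.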

Additional observations from a re-analysis of the deposited data

How the results depend on the processing

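The counts moved with the test, the set of features and the loss of an array. The methods' t-test with Benjamini-Hochberg adjustment called 371 genes raised and 523 lowered in nia1nia2 against Col-0 (189 and 153 at least 2-fold), and 490 higher and 641 lower in nia1nia2 than in noa1-2. Over all probe sets, named or not, limma called 1573 raised and 2370 lowered (707 and 626 at least 2-fold), and 1838 higher and 2324 lower than noa1-2. The unadjusted t-test over all probe sets, an alternative chosen after seeing the data, gave 1853 raised and 2925 lowered. With all 12 arrays in 1 fit, 1854 genes were lowered. Leaving out 1 array gave 434 to 903 raised and 552 to 1628 lowered genes against Col-0, with 290 to 396 and 276 to 423 at least 2-fold, and against noa1-2 508 to 1046 higher and 610 to 1688 lower, with the low counts of each range set by the loss of a Col-0 or noa1-2 array other than for the 2-fold rises, where the loss of nia1nia2 replicate 4 gave the same 290. The other filters and scalings, array weights and eBayes with a trend stayed within 1.5 times the main counts.

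Replicate numbers 2 and 3 occur in both genotypes, but deviations of same-numbered arrays correlated at -0.11 and -0.04, and nothing says that a number marks a shared batch. With the replicate block, 560 genes were raised and 891 lowered, and 290 and 267 at least 2-fold. Number 1 occurs only in Col-0 and number 4 only in nia1nia2, so this fit drew each fold change from replicates 2 and 3 alone. Its lower counts therefore cannot tell a batch from the loss of arrays. Of the 113 called genes named by the rule, 46 passed in every alternative and 75 in every alternative other than the t-tests, and the replicate block ended the call of 26. HRGP1 changed sign, to 0.11 with array weights, to 0.49 with the replicate block and to 0.47 without nia1nia2 replicate 4, and it ranged down to -0.88 without replicate 3. The HRGP1 value thus rested on replicate 4, and why that array read low was not tested. In the simulation 29.3% of 1.5-fold changes were found, but it changed 200 genes, fewer than were called here. The share of such changes missed in these data was therefore not measured.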
